A study of Mus musculus with 12 samples.

Results

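The sarcoplasmic reticulum calcium pumps and the micropeptides that bind them were examined in gastrocnemius, a calf muscle, of KO and WT mice. The set holds 5 genes chosen by symbol, the pump genes Atp2a1 and Atp2a2 and the regulator genes Sln, Pln and Mrln, out of 24528 genes in the table. All 5 were found, and all 5 were among the 12222 genes that passed the filter on low values. The 6 KO mice had the genotype Ank2f/f; HSA-Cre+, and the 6 WT mice were Ank2f/f without Cre. Both groups thus carried the floxed Ank2 alleles, and all 12 animals were males aged 4 months, littermates per the labels, with 1 library each. HSA-Cre is Cre driven by the human skeletal actin promoter, which is active in skeletal muscle fibres, so Cre is not expected in other cells of the tissue. Since no group carried Cre alone, effects of Cre and of the loss of Ank2, which encodes the membrane adaptor ankyrin-B, cannot be told apart.

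SERCA pumps return calcium from the cytosol to the sarcoplasmic reticulum after each contraction and so set how fast a fibre relaxes. Atp2a1 encodes SERCA1, the pump of fast fibres, and Atp2a2 encodes SERCA2, the pump of slow fibres, heart and smooth muscle. Sarcolipin (Sln), phospholamban (Pln) and myoregulin (Mrln) are single-pass membrane micropeptides that bind the pumps and lower their activity. Sarcolipin is abundant in atria and in slow muscle of large mammals and scarce in adult fast muscle of mice, phospholamban is typical of ventricle and slow fibres, and myoregulin is found across skeletal muscle.

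Values are on the log2 scale of the deposited table, whose lowest value of 5.57 was taken as no reads. That scale compresses differences between low values, so levels are also given as scaled reads, the same values with the transformation undone. Estimated depth was 13342686 to 18699931 reads in KO libraries and 12284322 to 16910087 in WT libraries. Ank2 itself was 7.74 ± 0.19 in KO and 8.88 ± 0.35 in WT (SD, n = 6 each; limma adjusted p = 0.000877), and all 6 KO libraries lay below the WT libraries. The tissue was skeletal muscle by its markers, with Acta1 at 19.02 or more in KO libraries and 18.85 or more in WT libraries. KO 2 stood apart from the rest of its group in Sln and in the cardiac and fetal sarcomere genes, though its Ank2 was as low as theirs (7.63). It was singled out from these same values, so passes without it are a description and no separate support. Without KO 2, 1517 genes were called against 757 with it, so the tests of the 5 genes and the list counts are also given without that mouse. In bulk tissue, fewer cells of a type and less RNA per cell cannot be told apart.

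None of the 5 genes passed the test between genotypes, against 6.19% of all tested genes (limma, p adjusted over all 12222 genes with a threshold of 0.05). Sln had the largest positive difference of all tested genes (1 gene, 0.00818%), Atp2a2 and Pln had lower means in KO, by differences that also missed the threshold (0.237% of tested genes differed by at least as much as Atp2a2 in either direction), and Atp2a1 and Mrln differed by less than the spread between mice. The unadjusted p was at or under 0.05 in 3 of the 5 genes (Sln, Pln and Atp2a2), a level that 26.0% of all tested genes reached. In none of the 5 did the groups separate fully, as they did in 2.47% of tested genes (1.27% with all KO libraries above and 1.20% with all below). With limma-voom 1 of the 5 was called (Pln), where 664 of the 12222 tested genes were called. Without KO 2 there were 2, Sln higher and Pln lower, where 12.4% of the tested genes were called (5.59% higher and 6.82% lower).

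**Figure D1:**
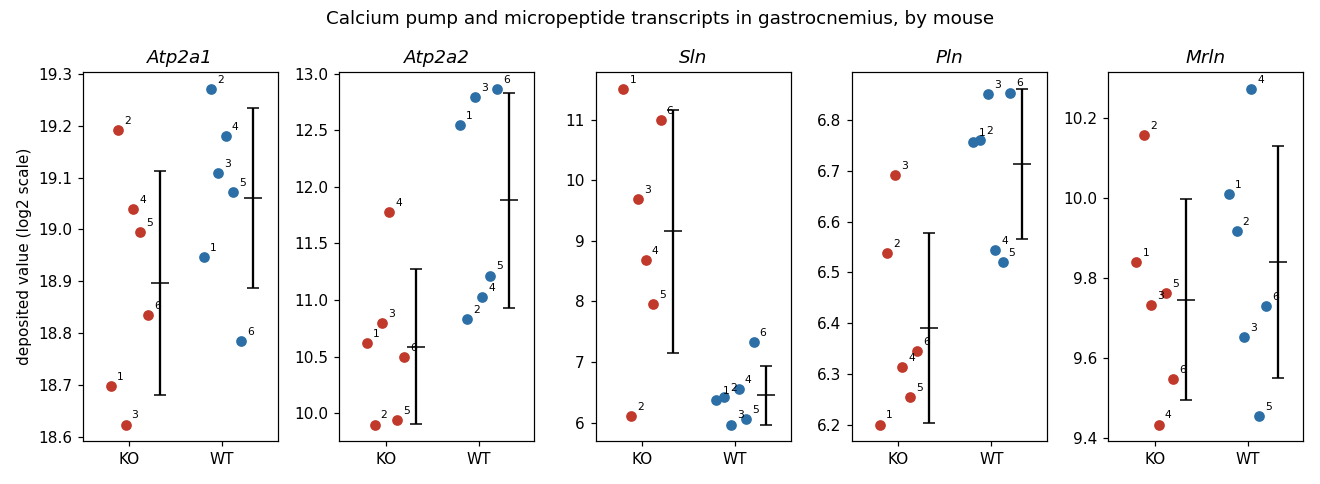
Deposited log2 value of each pump and micropeptide gene in 6 KO (red) and 6 WT (blue) mice; numbers are replicate numbers, bars show the mean and SD, and each panel has its own vertical axis. Sln is above the WT libraries in 5 KO mice and at 6.11 in KO 2, inside the WT range.

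Atp2a1 was by far the more abundant pump transcript and was similar in the 2 genotypes. Its deposited values were 18.70, 19.19, 18.62, 19.04, 18.99 and 18.83 in KO 1 to KO 6, against 18.95, 19.27, 19.11, 19.18, 19.07 and 18.78 in WT 1 to WT 6. KO 1 and KO 3 lay below the WT range and the other KO mice lay inside it. The difference was -0.16 (SE 0.12, 95% interval -0.41 to 0.08, limma adjusted p = 0.384; exact permutation p = 0.18), and -0.22 without KO 2 (adjusted p = 0.216). The transcript took 2.85% to 3.85% of all estimated reads in KO libraries and 3.09% to 4.07% in WT libraries. The gene lies on chromosome 7 from 126445858 to 126463108 on the minus strand (mm10), and 21.9% of its exon bases also belong to exons of Rabep2, whose reads a library without strand cannot separate.

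Atp2a2, the slow pump, was lower in all 6 KO libraries than the WT median, with overlapping groups. Scaled reads were 1481, 863, 1681, 3408, 890 and 1353 in KO 1 to KO 6, against 5878, 1731, 7007, 1988, 2284 and 7374 in WT 1 to WT 6. KO 4 alone reached into the WT range, and the WT mice fell into 3 high and 3 low animals, the low ones near the KO values. On the deposited scale the level was 10.59 ± 0.69 in KO and 11.88 ± 0.95 in WT (SD, n = 6 each), a difference of -1.29 (SE 0.47, 95% interval -2.32 to -0.26, limma adjusted p = 0.119; exact permutation p = 0.0303). The mean in scaled reads was 0.368 of that in WT. Without KO 2 the difference was -1.15 (adjusted p = 0.155). Atp2a2 lies on chromosome 5 from 122453513 to 122502225 on the minus strand. The third family member, Atp2a3, which encodes SERCA3 of blood and endothelial cells, averaged 7.37 ± 0.14 in KO and 7.74 ± 0.28 in WT (SD, n = 6 each; difference -0.37, limma adjusted p = 0.0607).

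Sln ranged from near absence to high expression among the KO mice. Scaled reads were 2832, 6.71, 738, 323, 163 and 1940 in KO 1 to KO 6, against 15.0, 16.9, 3.64, 22.9, 5.67 and 79.3 in WT 1 to WT 6. The 5 KO mice other than KO 2 were all above the highest WT mouse, and KO 2 stood among the low WT mice. Deposited values averaged 9.16 ± 2.01 in KO and 6.45 ± 0.48 in WT (SD, n = 6 each). The difference of 2.71 (SE 0.83, 95% interval 0.86 to 4.56, limma adjusted p = 0.0804; exact permutation p = 0.0108) ranked 1 among all 12222 tested genes by positive difference. The SD within KO was 4.16 times that within WT, and the highest KO mouse had 422 times the scaled reads of the lowest.

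Without KO 2 the Sln difference was 3.32 and passed the test (limma adjusted p = 0.0113). KO 2 is the KO mouse with the least Sln, so leaving it out could only raise the difference. The ratio of mean scaled reads, KO over WT, was 41.9, and it ran from 26.5 without KO 1 to 78.1 without WT 6. Few reads stood behind the WT values, from 3.02 to 79.2 estimated reads per library, against 5.76 to 3380 in KO libraries. The gene lies on chromosome 9 from 53850164 to 53854560 on the plus strand and shares no exon base with another annotated gene.

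Pln was a low transcript in both genotypes and had a lower mean in KO, by a difference at the edge of the threshold. Scaled reads were 9.26, 22.2, 30.3, 13.0, 11.0 and 14.1 in KO 1 to KO 6, against 34.0, 34.3, 40.1, 22.6, 21.4 and 40.3 in WT 1 to WT 6. KO 2 and KO 3 lay inside the WT range and the other 4 KO mice below it. Deposited values averaged 6.39 ± 0.19 in KO and 6.71 ± 0.15 in WT (SD, n = 6 each), a difference of -0.32 (SE 0.09, 95% interval -0.52 to -0.12, limma adjusted p = 0.0505; exact permutation p = 0.0108). The compressed scale makes that difference small, while the mean in scaled reads was 0.518 of that in WT. Without KO 2 the difference was -0.35 and passed (adjusted p = 0.0281), as it did without KO 3 (0.0418) or WT 4 (0.0409). Only 11.0 to 40.2 estimated reads per library stood behind these values. Pln lies on chromosome 10 from 53337667 to 53345987 on the plus strand, and 64.7% of its exon bases also belong to exons of Cep85l or Gm47644. How reads on shared bases were counted was not examined. The Pln value may therefore hold reads of those genes or lack reads of its own.

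Mrln was similar in the 2 genotypes, with KO 2 its highest KO library. Scaled reads were 824, 1048, 758, 600, 776 and 656 in KO 1 to KO 6, against 938, 875, 713, 1143, 611 and 757 in WT 1 to WT 6. KO 4 lay just below the lowest WT mouse and the other 5 KO mice inside the WT range. The deposited value was 9.75 ± 0.25 in KO and 9.84 ± 0.29 in WT (SD, n = 6 each), a difference of -0.09 (SE 0.13, 95% interval -0.38 to 0.19, limma adjusted p = 0.686; exact permutation p = 0.558). Without KO 2 it was -0.18 (adjusted p = 0.36). Mrln lies on chromosome 10 from 70204664 to 70219711 on the plus strand and shares no exon base with another gene.

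**Figure D2:**
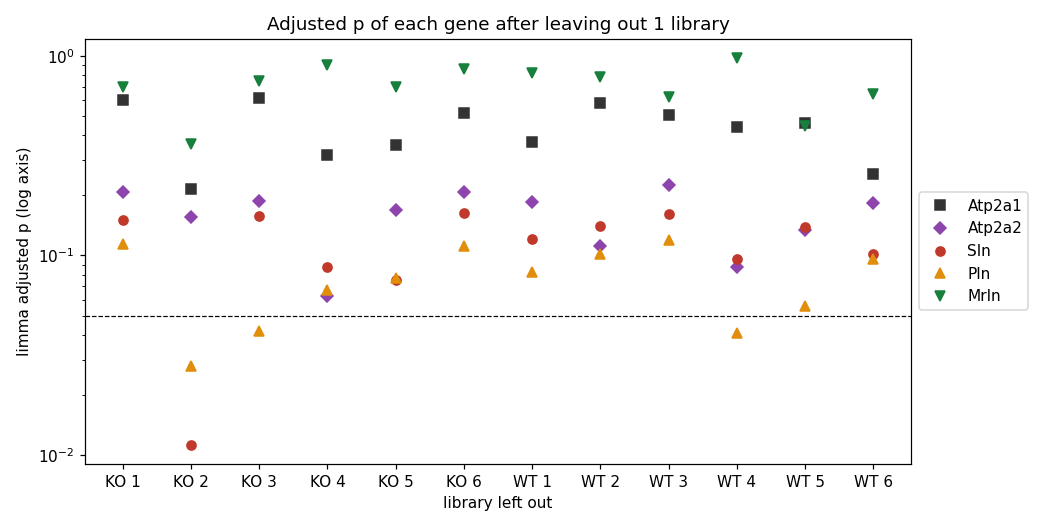
Limma adjusted p (vertical, log axis) of each gene after leaving out the library named on the horizontal axis; the dashed line is the threshold of 0.05. Sln passes without KO 2, Pln without KO 2, KO 3 or WT 4, and no omission brings the other 3 genes under the line.

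Mrln and Pln, both on chromosome 10, are the micropeptide genes whose promoters the RefSeq table (GRCm38.p6) holds, and they are shown because their transcripts lie far apart in level. The windows run from 250 to 51 bases before the start on the plus strand, chr10:70204414-70204613 for Mrln and chr10:53337436-53337635 for Pln. Capitals mark the E-box CANNTG, a motif that myogenic factors such as MyoD can bind and that reads alike on both strands. Each window holds 1 E-box, 93 bases before the start in Mrln and 59 in Pln, and 59% of the 32851 promoter windows of this length hold at least 1.
Mrln: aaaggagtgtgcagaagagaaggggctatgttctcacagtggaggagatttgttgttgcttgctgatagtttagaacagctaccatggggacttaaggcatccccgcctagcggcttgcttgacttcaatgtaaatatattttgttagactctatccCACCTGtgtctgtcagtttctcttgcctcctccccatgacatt
Pln: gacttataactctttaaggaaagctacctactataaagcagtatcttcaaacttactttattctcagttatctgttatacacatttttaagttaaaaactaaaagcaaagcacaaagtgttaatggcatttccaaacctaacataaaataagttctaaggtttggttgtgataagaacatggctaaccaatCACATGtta
Of the 5 genes, 3 had an entry in that table, the other one being Atp2a1, whose window holds no E-box.

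Per kilobase of exon, Atp2a1 stood far above the other 4 genes in all 12 libraries, at 141662 ± 21296 scaled reads per kilobase in KO and 158199 ± 18561 in WT (SD, n = 6 each). In KO muscle Sln (759 ± 862), Mrln (659 ± 132) and Atp2a2 (265 ± 154) followed with overlapping ranges, and Pln was lowest on average at 6.03 ± 2.92. In WT muscle Atp2a2 (720 ± 437) and Mrln (711 ± 160) overlapped, as did Sln (18.1 ± 21.3) and Pln (11.6 ± 3.01) below them. Sln was the second most abundant of the 5 in KO 1 and KO 6, and it was below Atp2a1, Atp2a2 and Mrln in all 6 WT libraries. The order of Mrln and Atp2a2 depends on the length taken for Mrln, whose exon union is 1180 bases and whose longest transcript is 451. With the longest transcript Mrln was above Atp2a2 in all 12 libraries. The exon lengths of Pln and Atp2a1 include bases shared with other genes (64.7% and 21.9%), which limits their levels per kilobase and the shares drawn from them.

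**Figure D3:**
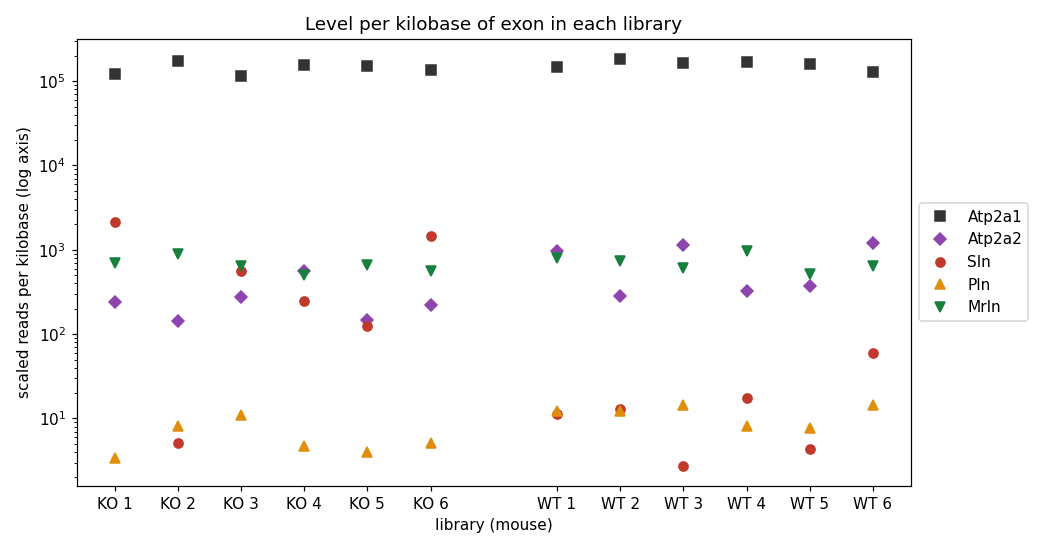
Scaled reads per kilobase of exon union (vertical, log axis) of each gene in each library. Atp2a1 is at 116088 or more in every library, and Sln runs from 5.09 in KO 2 to 2149 in KO 1, against 2.76 to 60.2 in WT.

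Levels per kilobase also give the shares of each transcript among the micropeptides and among the pumps. Sln made up 75.4%, 0.565%, 46.2%, 32.3%, 15.7% and 72.4% of the Sln, Pln and Mrln transcripts per kilobase in KO 1 to KO 6, against 0.445% to 8.40% in WT libraries. In the 5 KO mice other than KO 2 this share was above the WT range. With the longest transcript as length the share of Sln averaged 25.2% in KO (at most 54.0%) and 0.964% in WT (at most 3.43%), where the exon union gave 40.4% and 2.41%, and the same number of KO mice, 5, lay above the WT range. Atp2a2 made up 0.0823% to 0.36% of the Atp2a1, Atp2a2 and Atp2a3 transcripts per kilobase in KO libraries and 0.156% to 0.926% in WT libraries. Set against the pumps, the 3 micropeptide genes gave 0.488 to 2.33 transcripts per 100 pump transcripts in KO and 0.333 to 0.581 in WT, with KO 1, KO 3 and KO 6 above the WT range. These shares and ratios combine genes that were tested one by one and are given as a description.

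The slow-fibre genes were read beside Atp2a2. All 8 slow-fibre marker genes, among them those of the slow myosin heavy chain (Myh7) and the slow light chain (Myl2), had lower means in KO and none passed the test. Their median difference was -1.86, against -0.01 over all tested genes. Their summed scaled reads ran from 318 to 13813 in KO and from 4729 to 59041 in WT, and Myh7 was listed at the floor in KO 5. Among the 6 KO libraries, Atp2a2 was related to the mean of these genes with a Pearson r of 0.882 (exact permutation p = 0.00833) and a Spearman rho of 0.943 (exact permutation p = 0.0167). Without the 2 libraries farthest from the median of Atp2a2, r was 0.928. Of the 30 relations computed in this family none passed after adjustment, and for this one the adjusted p was 0.25 for r and 0.438 for rho (exact permutation tests). Among the 6 WT libraries r was 0.909 (exact permutation p = 0.0264, adjusted p = 0.264) and rho 0.886 (exact permutation p = 0.0333, adjusted p = 0.438). Without the 2 farthest libraries r was 0.884 (exact permutation p = 0.292). Atp2a1 in WT gave r = -0.885 with the slow-fibre mean (exact permutation p = 0.0194, adjusted p = 0.264), and -0.528 without the 2 farthest. The WT values of Atp2a2 fell into a high and a low set, which limits what r shows there. WT 1, WT 3 and WT 6 had slow-fibre means of 11.20, 10.84 and 12.31 and were the 3 WT mice with high Atp2a2, while WT 2, WT 4 and WT 5 had 8.92, 9.92 and 9.28.

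With the slow-fibre mean as a covariate, the Atp2a2 difference was -0.19 (SE 0.27, limma adjusted p = 0.694) and that of Pln -0.23 (SE 0.12, adjusted p = 0.241). In the same fit the difference was 3.48 for Sln (SE 1.07, adjusted p = 0.0865), -0.35 for Atp2a1 (SE 0.13, adjusted p = 0.125) and -0.18 for Mrln (SE 0.18, adjusted p = 0.54). The slow-fibre mean itself differed between the groups, at 8.40 in KO and 10.41 in WT. The fit therefore cannot separate it from genotype, and its part in these differences was not tested. Sln in KO gave r = 0.354 with the slow-fibre mean (exact permutation p = 0.479, adjusted p = 0.833; rho = 0.429, exact permutation p = 0.419; r = 0.0615 without the 2 farthest libraries). KO 5, with the lowest slow-fibre mean of the 12, had 163 scaled reads of Sln, above each WT mouse. Sln with Atp2a1 in KO gave r = -0.834 (exact permutation p = 0.0444, adjusted p = 0.333; rho = -0.771, exact permutation p = 0.103). That relation was weaker without the 2 libraries farthest from the median of Sln, where r was -0.578 (exact permutation p = 0.458). So few libraries are left that this p cannot decide whether the relation rests on those 2.

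**Figure D4:**
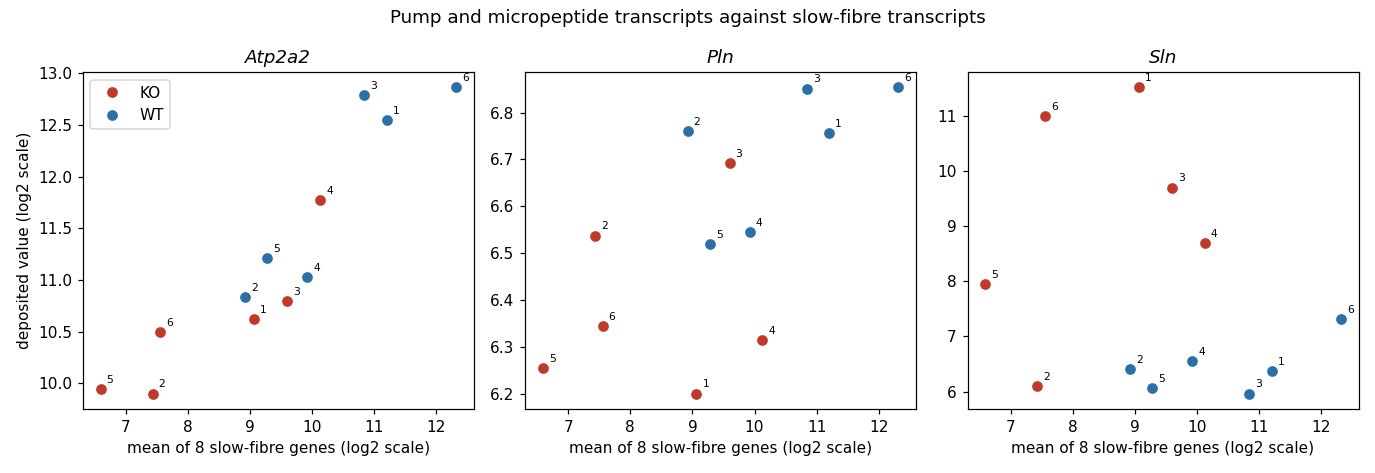
Deposited log2 value of Atp2a2, Pln and Sln (vertical) against the mean of 8 slow-fibre genes (horizontal) in 6 KO (red) and 6 WT (blue) mice, numbered by replicate. Atp2a2 is higher where the slow-fibre mean is higher among the KO mice (r = 0.882), while 5 KO mice have high Sln at slow-fibre means from 6.60 to 10.13.

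Markers of other sources were also read beside these genes. Over all tested genes 3.12% were called higher in KO and 3.08% lower (5.59% and 6.82% without KO 2). Smooth muscle, which uses SERCA2 and phospholamban, had lower means in KO for 8 of 8 markers, and 1 of them passed, Myh11 (-0.54, limma adjusted p = 0.0418). Their summed scaled reads were 4208 to 7346 in KO and 6016 to 8459 in WT. Atrial muscle is rich in sarcolipin. The list of cardiac and fetal sarcomere genes is not specific to atria, and 3 of its 6 tested genes rose, Actc1, Tnnt2 and Myh8. Summed scaled reads of all 9 listed genes, untested ones included, were 2705 to 28965 in KO and 1461 to 7258 in WT. Myh6, the myosin heavy chain gene of atria and adult mouse heart, had the opposite sign, at 6.13 ± 0.38 in KO and 6.81 ± 0.40 in WT (SD, n = 6 each; difference -0.69, limma adjusted p = 0.0596). Myh6 values lie near the floor of 5.57, which its lowest KO library reached. Without KO 2, 5 of the 6 tested genes were higher in KO and Myh6 was lower (-0.77, limma adjusted p = 0.029). The mean of the 6 genes was 8.64 to 9.17 in the 5 other KO mice and 7.46 in KO 2, against 7.40 to 7.80 in WT mice. In this mean KO 2 again lay inside the WT range. By gene, KO 2 was above each WT mouse in Tnnt2 (7.35, at most 7.17 in WT). It was below each WT mouse in Myl4 (6.82, at least 7.06 in WT). The atrial marker genes Myl7 and Nppa, and Nppb, did not pass the filter on low values. Endothelial cells, which use SERCA3, had lower means in KO for 6 of 8 markers, and 1 of them passed, Flt1 (-0.50, limma adjusted p = 0.0347), with a marker mean of 8.79 to 9.33 in KO and 9.00 to 9.24 in WT. Of the adipocyte markers 1 of 4 fell, Adipoq (-0.34, limma adjusted p = 0.0429), with list means of 7.21 to 7.77 in KO and 7.50 to 7.85 in WT. Adipoq was itself near the floor, at 6.05 in KO and 6.39 in WT. None passed among 8 macrophage markers (means of 6.95 to 7.72 in KO and 6.82 to 7.75 in WT), 6 Schwann cell markers (7.11 to 9.68 in KO and 7.85 to 9.03 in WT), 8 fast-fibre genes (16.61 to 17.27 in KO and 16.97 to 17.28 in WT) and 7 general skeletal muscle genes (16.57 to 16.85 in KO and 16.68 to 16.88 in WT). Without KO 2, 2 of 8 endothelial markers were lower in KO, Flt1 and Tek (-0.31, limma adjusted p = 0.045). The counts of the smooth muscle, adipocyte, macrophage, Schwann cell, slow-fibre, fast-fibre and general skeletal muscle lists were the same without KO 2. The part of these cell types in the results was not tested.

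Beyond the 5 genes, calcium-handling partners changed in small numbers. Of 12 tested regulators and luminal partners of SERCA, none rose and 1 fell, Tmem64, a SERCA2-binding membrane protein gene (-0.62, SE 0.17, limma adjusted p = 0.0461), with all 6 KO libraries below the WT libraries. The median difference of these genes was 0.07. Among them, 1810037I17Rik, which encodes the micropeptide another-regulin, averaged 8.31 ± 0.13 in KO and 8.16 ± 0.06 in WT (SD, n = 6 each), a difference that missed the threshold (limma adjusted p = 0.199); it is shown as a micropeptide, chosen with its values known. The list of other calcium pumps and exchangers also holds Nptn and Bsg, which encode neither. Of its 12 tested genes, 2 rose and none fell, with a median of -0.20. They were Slc8b1, the mitochondrial sodium-calcium exchanger gene (0.61, SE 0.12, limma adjusted p = 0.0133), and Slc8a3, a plasma membrane exchanger gene (0.39, SE 0.10, adjusted p = 0.0349). Rises took 3.12% and falls 3.08% of all tested genes.

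Of 16 genes of the kinases and phosphatases that act on phospholamban or sarcolipin, 2 fell and none rose, with a median of -0.14. Ppp1cb, a catalytic subunit of protein phosphatase 1, fell by 0.43 (SE 0.10, limma adjusted p = 0.0263) and Prkacb, a catalytic subunit of protein kinase A, fell by 0.40 (SE 0.12, adjusted p = 0.0494). Calcineurin and its NFAT and MEF2 targets link calcium to the slow-fibre programme, and here 4 of 17 genes fell and none rose, with a median of -0.31. The NFAT factor genes Nfatc3 (-0.42, adjusted p = 0.0324), Nfatc2 (-0.36, adjusted p = 0.0265) and Nfatc1 (-0.33, adjusted p = 0.0395) fell in KO. Rcan2, which encodes a calcineurin regulator, fell by 1.07 (SE 0.26, limma adjusted p = 0.0375), to 8.20 ± 0.44 in KO against 9.27 ± 0.51 in WT (SD, n = 6 each). Without KO 2, 1 of 12 SERCA partners rose and 1 fell, and on the pump and exchanger list 2 of 12 rose and 3 fell. In that run 2 of 16 kinase and phosphatase genes and 7 of 17 calcineurin, NFAT and MEF2 genes fell, and none rose. Over all tested genes 5.59% rose and 6.82% fell in it.

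**Figure D5:**
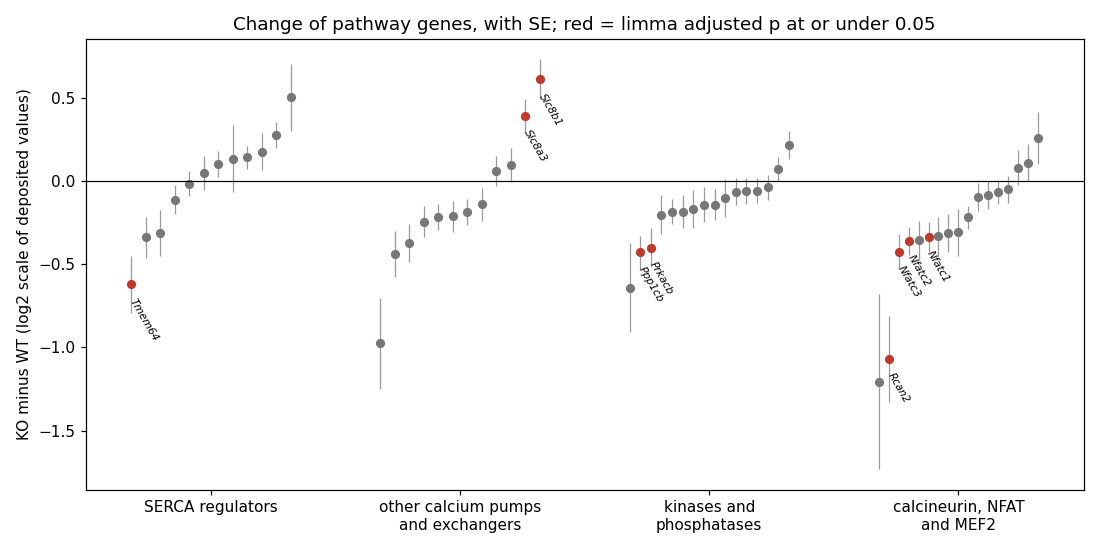
Difference KO minus WT on the log2 scale (vertical, with SE) for each tested gene of 4 calcium-handling lists, ordered by value within a list; red points passed the test. Of the 17 calcineurin, NFAT and MEF2 genes, 4 are red and all 4 are below 0.

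The genes most like each member were found by the correlation of deviations from the own group mean over the 12 libraries. They are the best matches among 12222 genes, so high values come with the search. Nearest to Sln were Nudt14 (r = 0.969), a sugar nucleotide hydrolase gene, the cathepsin L gene Ctsl (0.95) and the phospholipase D gene Pld2 (0.943), all 3 higher in KO (0.49, 0.45 and 0.62, limma adjusted p = 0.023, 0.0344 and 0.00712). For Sln and Ctsl, r was 0.987 within KO and 0.268 within WT. Nearest to Atp2a2 were Lrtm2 (r = 0.902), the slow troponin I gene Tnni1 (0.882) and Cyfip2 (0.881). Nearest to Pln were Utp15, She and B4galt4 (0.867 to 0.83), nearest to Mrln Nudt3, Ddrgk1 and Trim54 (0.949 to 0.916), and nearest to Atp2a1 Zmym2, Atg9a and Stat5b (0.961 to 0.954).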

How the data were processed

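Poly-A RNA was sequenced in paired ends from gastrocnemius of 6 KO and 6 WT mice. The authors deposited 1 table of values on a log2 scale, whose transformation is not given in the sources used here. Trimming, alignment and counting tools named in the submitters' processing notes are fastp, STAR and featureCounts, with mm10 as the build and no versions. The labels' protocols describe no step that marks strand. The members and gene lists were chosen with earlier results of these data known.

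All 12 columns share 1 lowest value, the shape of a variance-stabilizing transformation. Its closed form was inverted to scaled reads, and the commonest smallest step of each library was taken as 1 read; 87.9% to 93.6% of low values then fell within 0.1 of a whole read, so estimated reads are approximate. They served for levels, depth, the filter (10 or more estimated reads in 6 or more libraries) and some alternatives. Counting error alone does not cover PCR duplicates.

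The deposited values were fitted with limma 3.58.1 (R 4.3.3; group as the only term, trend and robust moderation; two-sided, Benjamini-Hochberg over 12222 genes, threshold 0.05). The fit was tested on simulated data. For single genes, all 924 assignments of libraries to groups gave an exact permutation test, two-sided. Relations within a genotype used exact tests over pairings. Exon lengths and positions come from GENCODE M21 (mm10), promoters from RefSeq. Named genes were the 5 members, the 3 most alike to each, called members of each pathway list, and marker lists. Of the SERCA regulators, Strit1 was not analysed here and Smim6 did not pass the filter. No other column was left out.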

Additional observations from a re-analysis of the deposited data

Results flagged for a closer look

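Among the 6 mice of a group, a value was picked out when its gap to the next mouse took a large part of the group's range (Dixon's test at the 95% level). Of 28 groups tested, 4 held such a value, where chance gives about 1 in 20 for separate measures. The 28 are not separate, because the shares and ratios reuse the same values. Of the 4 values, 3 come from WT 6, the WT mouse with the most Sln, and all 3 use its Sln value. There Sln made up 8.40% of the 3 micropeptide genes per kilobase, Mrln made up 89.6%, and Sln stood at 0.0464 per 100 Atp2a1 transcripts per kilobase. WT 6 also had the highest slow-fibre mean of the 12 libraries (12.31). The other is KO 3, in which Atp2a3 made up 0.018% of the 3 pump genes per kilobase. The low Sln value of KO 2 was not among the 4.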

How the results depend on the processing

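No difference of the 5 genes changed direction under any alternative run. Sln passed the test with plain limma moderation (2.71, adjusted p = 0.0338) and without KO 2; without single libraries it ran from 2.24 to 3.32 (adjusted p 0.0113 to 0.164), and with limma-voom it was 4.50 (adjusted p = 0.364). Pln passed with limma-voom (-1.03, adjusted p = 0.0482), with quantile normalization (-0.34, adjusted p = 0.0404) and with the replicate number as a block (-0.32, adjusted p = 0.0371); without single libraries it ran from -0.38 to -0.29 (adjusted p 0.0281 to 0.12), and it did not pass the stricter filter of 50 estimated reads. Same-numbered libraries did not deviate together (r from -0.36 to 0.29, over 0.1 in 2 of 6 pairs), so the replicate block, which called 818 genes, shares only a number. Atp2a2 (-1.53 to -1.09 without single libraries), Atp2a1 (-0.22 to -0.11) and Mrln (-0.18 to -0.01) passed under none of the alternatives run. The count of called genes was 757, 501 with the slow-fibre covariate and 194 (without KO 6) to 1517 (without KO 2) without single libraries; it was also lower by over 1.5 times without KO 1 (272), KO 3 (225), WT 1 (368), WT 2 (207), WT 3 (205), WT 5 (317) or WT 6 (366). The cause of these shifts was not tested. With the longest transcript as length, the micropeptide genes gave 1.83 transcripts per 100 pump transcripts in KO and 1.20 in WT, where the exon union gave 1.07 and 0.47, and Pln made up 0.757% of the micropeptide genes in WT, where the exon union gave 1.63%; the share of Sln, given with both lengths above, was also lower. Depth limits Pln and, in WT, Sln, with fewer than 80 estimated reads per library.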
